A study of Mus musculus with 12 samples.

Results

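The genes examined were the 4 R-spondin ligands Rspo1, Rspo2, Rspo3 and Rspo4, their receptors Lgr4, Lgr5 and Lgr6, and the ubiquitin ligases Znrf3 and Rnf43. They were chosen by gene symbol. All 9 were found in both tables, among the 14986 genes that the tables share, and were followed through all 12 libraries. Of these, 8 reached the minimum mean of 10 normalized reads needed for a test, and Rnf43 did not. R-spondins are secreted proteins that bind an Lgr receptor together with Znrf3 or Rnf43, membrane ligases that mark Frizzled receptors for removal. The bound ligase is cleared from the cell surface, Frizzled accumulates, and the cell answers Wnt ligands more strongly. In the hair follicle the dermal papilla (DP) is the mesenchymal signaling center next to the epithelial matrix, and Lgr5 and Lgr6 are best known as markers of epithelial stem cells.

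The study asked which transcripts of the DP depend on Fgf signaling as the growth phase (anagen) proceeds. DP cells of dMF1/2 mice, in which Fgfr1 and Fgfr2 are deleted by a Cre line driven by Corin, and of control mice were sorted for a Cre-dependent YFP reporter carried by both groups. Postnatal day 14 (P14) and day 16 (P16) were each represented by 3 control and 3 dMF1/2 mice. The labels name the controls wild type, but a YFP-positive control cell must carry Cre, and in the methods controls with Cre carry a single floxed copy of Fgfr1 and of Fgfr2. The libraries held 19302358 to 29860750 reads over protein-coding genes. All 16 markers in a list of DP genes were detected. Replicate 1 of both genotypes at P14 stood apart, with 17.7% and 21% of reads in Col1a1, Col1a2 and Col3a1 against 27.2 to 36.1% elsewhere, and comparisons that use these libraries were repeated without them. The targeted genes were read first: Fgfr1 ranged from 7745 to 9981 normalized reads in control and 6391 to 7405 in dMF1/2 libraries at P14, and from 8512 to 12520 and 6226 to 8015 at P16, so that every mutant library lay below every control library of its day, while Fgfr2 overlapped on both days, and neither was called (limma's adjusted p = 0.13 to 0.978). Reads were counted over whole genes, to which exons outside a deleted part contribute, so these values do not check the deletion.

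In the GRCm38 annotation the ligand genes are Rspo1 (ENSMUSG00000028871, chr4:124986430-125009099, plus strand), Rspo2 (ENSMUSG00000051920, chr15:43020811-43170818, minus strand), Rspo3 (ENSMUSG00000019880, chr10:29453109-29535867, minus strand) and Rspo4 (ENSMUSG00000032852, chr2:151842927-151874668, plus strand). The receptor genes are Lgr4 (ENSMUSG00000050199, chr2:109917647-110014257, plus strand), Lgr5 (ENSMUSG00000020140, chr10:115450311-115587780, minus strand) and Lgr6 (ENSMUSG00000042793, chr1:134983301-135105276, minus strand). The ligase genes Znrf3 (ENSMUSG00000041961, chr11:5276324-5444847, minus strand) and Rnf43 (ENSMUSG00000034177, chr11:87662722-87735539, plus strand) share a chromosome. All values are reads summed over the exons of a gene.

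Promoter sequence is shown for the ligands Rspo1 and Rspo4, which fell together in control mice, and for Lgr4 and Lgr6, the receptors whose levels differed most between the groups. The RefSeq promoter table of build GRCm38.p6 held windows for 5 of the 9 genes and none for Rspo2, Rspo3, Lgr5 and Znrf3. Each sequence is the 250 bases before the annotated start, 5′ to 3′ on the strand of the gene, with capitals marking a GC box (GGGCGG) or a CCAAT box (CCAAT) on either strand.
Rspo1 (chr4:124986180-124986429, plus strand): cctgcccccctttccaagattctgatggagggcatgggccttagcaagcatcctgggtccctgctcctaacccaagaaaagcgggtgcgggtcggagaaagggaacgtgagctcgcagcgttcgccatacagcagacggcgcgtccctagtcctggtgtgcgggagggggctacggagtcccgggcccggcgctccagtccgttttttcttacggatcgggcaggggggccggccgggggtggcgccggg
Rspo4 (chr2:151842677-151842926, plus strand): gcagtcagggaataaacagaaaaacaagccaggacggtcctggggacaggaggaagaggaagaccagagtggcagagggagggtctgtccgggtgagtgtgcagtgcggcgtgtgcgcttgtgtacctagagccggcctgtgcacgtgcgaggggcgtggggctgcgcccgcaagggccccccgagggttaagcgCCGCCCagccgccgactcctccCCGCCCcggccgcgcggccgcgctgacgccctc
Lgr4 (chr2:109917397-109917646, plus strand): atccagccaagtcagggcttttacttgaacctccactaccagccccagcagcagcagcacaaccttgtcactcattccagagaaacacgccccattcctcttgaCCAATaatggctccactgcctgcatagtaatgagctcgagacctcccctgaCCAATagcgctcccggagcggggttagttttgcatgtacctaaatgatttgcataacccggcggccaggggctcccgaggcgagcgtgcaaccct
Lgr6 (chr1:135105277-135105526, minus strand): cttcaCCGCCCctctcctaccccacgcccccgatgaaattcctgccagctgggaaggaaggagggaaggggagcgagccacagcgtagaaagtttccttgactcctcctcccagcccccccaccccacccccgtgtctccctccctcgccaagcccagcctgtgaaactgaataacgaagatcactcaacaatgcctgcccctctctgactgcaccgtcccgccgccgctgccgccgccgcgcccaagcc

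The 2 GC boxes of Rspo4 began 55 and 33 bases before the start and that of Lgr6 245 bases before it, and GC boxes were found in 32.7% of the 32851 promoters of the same length. Lgr4 held 2 CCAAT boxes, 146 and 95 bases before its start, a motif present in 33.8% of promoters. The TCF/LEF core (CTTTGA, in 13.8% of promoters), the AP-1 motif (TGANTCA, 6.75%), the ETS motif (CCGGAAG, 6.91%) and the TATA box (TATAAA, 12.4%) were not found on either strand in these 4 windows. GC content was 66.8% for Rspo1, 69.6% for Rspo4, 55.6% for Lgr4 and 65.2% for Lgr6, against a median of 52.4% over all promoters. Rspo1 was thus near Rspo4 in GC content but held none of the motifs searched, and a match or its absence is a description of letters in a window.

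The sorted cells held more ligand than receptor transcript in every library, with Rspo4 the largest ligand, and ligase transcript was scarcer still. By immunostaining and in situ hybridization the study found these receptors and ligases in the follicle epithelium and did not detect them in the DP. The source of their reads in the sorted cells was not tested. Levels between genes were compared as reads per kilobase of exon on the scale common to the 12 libraries, given as mean ± SD (n = 3). In P14 control mice Rspo4, known for its role in nail growth, stood at 9502 ± 3007, Rspo3, a factor in vessel and placenta development, at 1912 ± 729.6 and Rspo1, a factor in ovary development, at 1653 ± 240.3. Rspo2, needed for limb and lung development, followed at 562 ± 206, Lgr6 at 462 ± 147 and Lgr4, the broadly expressed receptor, at 405 ± 39.9. Rspo3 and Rspo1 overlapped between libraries, as did Rspo2 with Lgr6 and Lgr4. Znrf3 lay at 53.6 ± 2.02, Lgr5 at 30.8 ± 1.89 and Rnf43 at 0.509 ± 0.452.

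The order was different in P16 control mice. Rspo4 was still first at 2704 ± 1415, but Rspo1 at 852 ± 205 and Lgr6 at 609 ± 205 came before Rspo3 at 294 ± 131 and Lgr4 at 289.7 ± 34.4. Rspo2 stood at 83.9 ± 37.1 and overlapped with Znrf3 at 62.8 ± 2.85. In P16 dMF1/2 mice Rspo4 stood at 5964 ± 1269, Rspo3 at 2516 ± 548, Rspo1 at 1492 ± 244, Lgr4 at 718 ± 181, Rspo2 at 636 ± 146 and Lgr6 at 449 ± 173, and Rspo2 overlapped with both Lgr4 and Lgr6 between libraries. Here the first 3 genes kept the order they had at P14 in both genotypes. Rspo4 exceeded at least 98.5% of the 13398 tested genes with an exon length in every group, and the group means of Lgr5 ranked between the 27.2 and 30.01 percentiles. Rnf43 had 0 to 10 reads per library, and the 2 libraries at 0 allow up to 3 reads each by counting error alone.

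**Figure D1:**
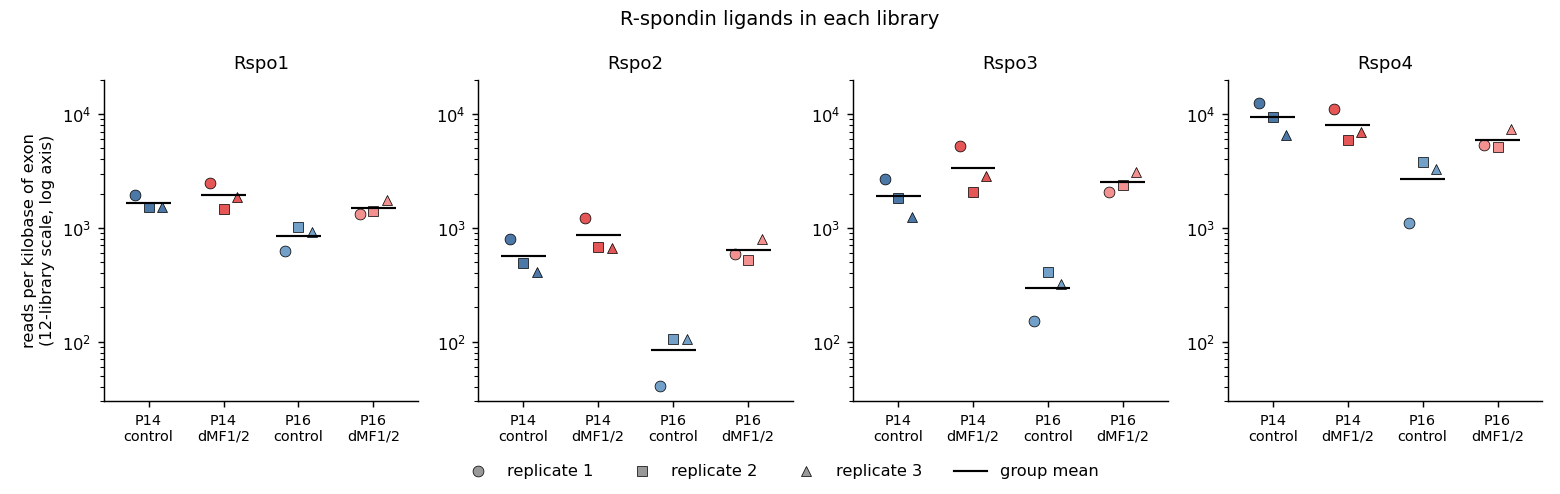
Levels of the 4 R-spondin ligands in reads per kilobase of exon on the 12-library scale (log axis), with 1 point per library, its shape giving the replicate number, and a line at the group mean. The 3 P16 control libraries are the lowest for Rspo2 and Rspo3, between 41.1 and 106 and between 151 and 408, while the P16 dMF1/2 libraries of these genes, between 521 and 800.3 and between 2052 and 3121, lie within the range of the P14 libraries.

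At P16, Rspo2, Rspo3 and Lgr4 stood higher in the mutants than in the controls, and no tested member was called lower. The 3 calls among 8 tested members stand beside 2.18% of 13457 genes called higher on this day (4.32% in either direction). Rspo2 had 213, 544 and 548 normalized reads in the control libraries and 3070.1, 2709.8 and 4169 in the dMF1/2 libraries, in order of replicate number and on the deposited scale of the day. Rspo3 had 474, 1282 and 1013 in control against 6486, 7466 and 9830.0 in dMF1/2 mice. Every mutant library lay several-fold above every control library for both ligands. The log2 fold changes were 3.03 for Rspo2 (SE 0.35; adjusted p = 0.00604 by limma) and 3.20 for Rspo3 (SE 0.34; adjusted p = 0.00502 by limma). Both calls held in each of the 14 alternatives, with log2 fold changes of no less than 2.58 for Rspo2 and 2.78 for Rspo3 (both without P16 control replicate 1) and adjusted p-values of up to 0.0314 and 0.0264. Of the exonic bases of Rspo3, 404 of 3090 overlap the antisense gene Gm48159, and the strand setting of the counting is not given in the sources used here, so reads from these bases cannot be assigned with certainty.

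Rspo1 and Rspo4 were also higher in each mutant library than in any control library at P16, but their differences did not pass the threshold. Rspo1 had 1218, 1988 and 1819 normalized reads in control against 2603, 2745 and 3495 in dMF1/2 mice, a log2 difference of 0.83 (SE 0.19; adjusted p = 0.0523 by limma). Rspo4 had 2637, 9063 and 7822 in control against 12857, 12449 and 17946 in dMF1/2 mice, a log2 difference of 1.31 (SE 0.42; adjusted p = 0.132 by limma). Control replicate 1 was the lowest library for all 4 ligands. With the replicate number as a block, both passed, with adjusted p-values from limma of 0.00889 for Rspo1 and 0.0411 for Rspo4, and the alternatives ranged from 0.00113 (DESeq2) to 0.164 for Rspo1 and from 0.0411 to 0.329 for Rspo4. Across all genes tested, 12.9% had mutant libraries entirely above the control libraries, and an exact permutation test of 3 against 3 cannot give a p under 0.1.

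Among the receptors at P16, Lgr4 alone was called. Its normalized reads were 1497, 1890.4 and 1802 in control against 3567, 3805 and 5551 in dMF1/2 mice, a log2 difference of 1.29 (SE 0.17; adjusted p = 0.00862 by limma), and the call held in each of the 14 alternatives. Lgr6 had 2777, 4297 and 5618 in control against 4034, 1753 and 3624 in dMF1/2 mice, with overlapping groups and a log2 difference of -0.46 (95% interval -1.26 to 0.33, limma's adjusted p = 0.548). Lgr5 had 375, 352 and 322 in control against 361, 486 and 269 in dMF1/2 mice, a log2 difference of 0.05 (95% interval -0.41 to 0.51, limma's adjusted p = 0.935). Lgr4 was thus separated between the genotypes, whereas the libraries of Lgr5 and of Lgr6 overlapped.

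No difference was detected in the ligases. Znrf3 had 492, 489 and 528 normalized reads in control against 564, 435 and 547 in dMF1/2 mice at P16, a log2 difference of 0.03 (95% interval -0.24 to 0.30, limma's adjusted p = 0.943). Rnf43, with 1.75, 6.22 and 1.01 in control against 3.24, 2.80 and 3.18 in dMF1/2 mice, was too low for a difference to be detectable at this depth.

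**Figure D2:**
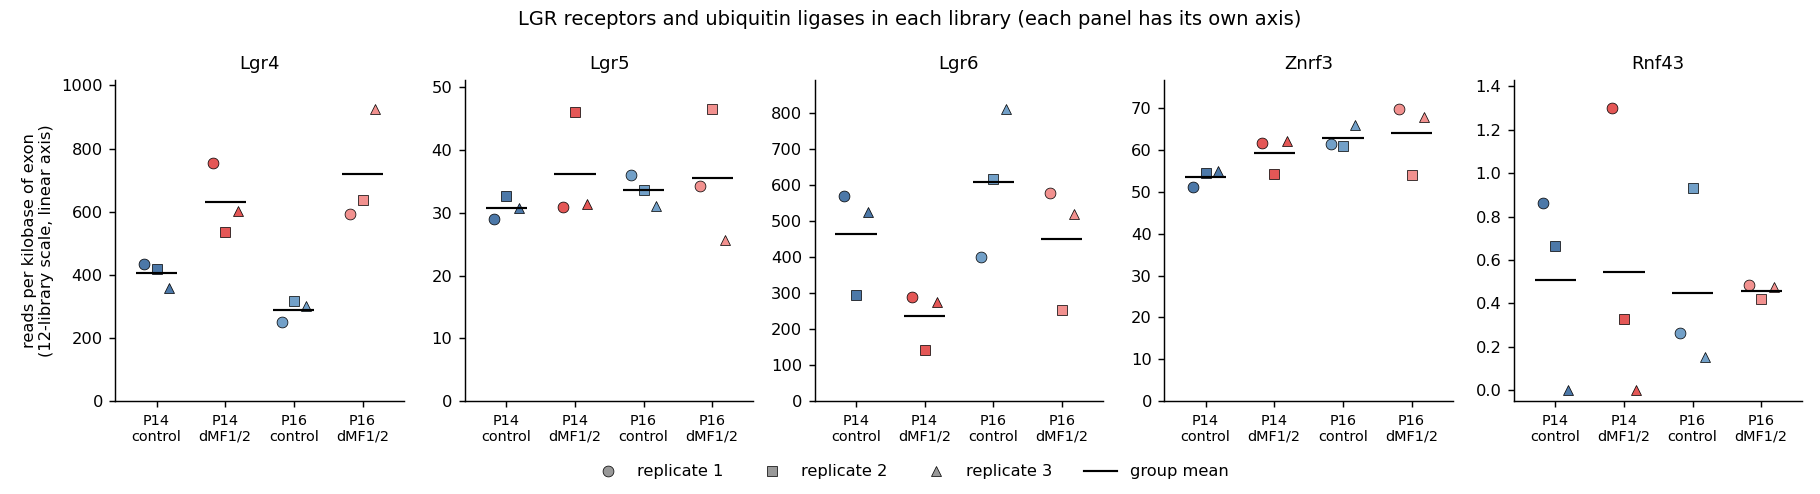
Levels of Lgr4, Lgr5, Lgr6, Znrf3 and Rnf43 in reads per kilobase of exon on the 12-library scale (linear axes, a separate range per panel), with 1 point per library and a line at the group mean. Lgr4 separates the genotypes on both days, Lgr6 is lowest in P14 dMF1/2 mice with a mean of 235, and Znrf3 stays between 51.3 and 69.8 in the 12 libraries.

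At P14 no member passed the threshold, on a day when limma called 7 of 13334 genes (0.0525%). Lgr4 had 2526, 2436 and 2087 normalized reads in control against 4376, 3122 and 3516 in dMF1/2 mice, a log2 difference of 0.63 (SE 0.14; adjusted p = 0.286 by limma). Lgr6 had 3849.5, 1989 and 3539.6 in control against 1957, 960.2 and 1865 in dMF1/2 mice, a log2 difference of -0.98 (SE 0.34; adjusted p = 0.559 by limma). The mutant libraries lay wholly above the control libraries for Lgr4 and wholly below them for Lgr6, as was true in either direction for 12.7% of the genes tested. Within pairs of the same replicate number, the log2 ratio of dMF1/2 to control was -0.98, -1.05 and -0.92 for Lgr6 and 0.79, 0.36 and 0.75 for Lgr4. Blocking on the replicate number gave limma's adjusted p as 0.00176 for Lgr6 and 0.028 for Lgr4, in a fit that called 224 genes, and DESeq2 gave 0.0146 for Lgr4. Over the 15 alternatives the adjusted p ranged from 0.00176 to 0.999 for Lgr6 and from 0.0146 to 0.84 for Lgr4.

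Rspo2 and Rspo3 overlapped between the genotypes at P14. Rspo2 had 4012, 2449.7 and 2044 normalized reads in control against 6177, 3426 and 3389 in dMF1/2 mice, a log2 difference of 0.61 (SE 0.31; adjusted p = 0.794 by limma), which with the replicate number as a block had an adjusted p of 0.0131 (0.0131 to 1 over the alternatives). Rspo3 had 8186, 5546 and 3759 in control against 15893, 6270.1 and 8778 in dMF1/2 mice, a log2 difference of 0.79 (SE 0.39; adjusted p = 0.778 by limma). Replicate 1, the library low in collagen reads, was the highest of its group for each of these ligands in both genotypes. Rspo1 and Rspo4 had log2 differences of 0.21 and -0.25, and Lgr5 and Znrf3 of 0.21 and 0.15, with limma's adjusted p-values between 0.871 and 0.974. Without replicate 1 of both genotypes at P14 no member was called either.

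Between P14 and P16 all 4 ligands fell in control mice, whereas no receptor or ligase passed the test. The 4 calls among 8 tested members stand beside 8.28% of 13415 genes called lower over these days (14.5% in either direction). Reads on the common scale of the 12 libraries fell for Rspo2 from 4063, 2485 and 2071 at P14 to 210.0, 535 and 541 at P16, and for Rspo3 from 8291, 5625 and 3809 to 467, 1260.2 and 1000.4. Neither gene overlapped between the days. Their log2 fold changes were -2.81 (SE 0.38; adjusted p = 0.00177 by limma) and -2.74 (SE 0.41; adjusted p = 0.00293 by limma), and both calls held in each of the 15 alternatives.

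Rspo4 went from 29728, 22393 and 15468 reads at P14 to 2599, 8911 and 7726 at P16, a log2 difference of -1.95 (SE 0.42; adjusted p = 0.0137 by limma). Rspo1 went from 3741, 2944 and 2926 to 1200.4, 1955 and 1797, a log2 difference of -0.98 (SE 0.22; adjusted p = 0.0151 by limma). P16 control replicate 1 was again the lowest library for both. Some alternatives ended these calls. Rspo4 had a log2 difference of -1.72 (limma's adjusted p = 0.0541) without P14 control replicate 1 and of -1.95 (limma's adjusted p = 0.0558) in a fit of the 6 control libraries. Rspo1 had -0.86 (limma's adjusted p = 0.0587) without P14 control replicate 1 and -0.76 (limma's adjusted p = 0.0584) without P16 control replicate 1. Without replicate 1 of both genotypes at P14, an alternative chosen after seeing the data, the 4 ligands were all called, with log2 differences of -0.86 for Rspo1, -2.53 for Rspo2, -2.46 for Rspo3 and -1.72 for Rspo4 and limma's adjusted p-values of 0.0352, 0.00601, 0.00717 and 0.0442. Over all 15 alternatives the adjusted p ranged from 9.24e-05 to 0.0558 for Rspo4 and from 0.000622 to 0.0587 for Rspo1.

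The control receptors and ligase moved less. Lgr4 went from 2558, 2471 and 2115 reads to 1476, 1859 and 1779.5, a log2 difference of -0.48 (95% interval -0.87 to -0.10, limma's adjusted p = 0.0831), and Znrf3 from 405, 431 and 434 to 484, 481 and 522, a log2 difference of 0.23 (95% interval -0.00 to 0.46, limma's adjusted p = 0.161). The days did not overlap for either gene, as for 18.4% of genes in the direction of Lgr4 and 17.5% in that of Znrf3. Lgr5 and Lgr6 overlapped between the days, with log2 differences of 0.12 and 0.40 (limma's adjusted p = 0.708 and 0.515).

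In dMF1/2 mice no member changed between the days at the threshold, while 5.8% of the 13415 genes did. Rspo2 went from 6265, 3458 and 3422 reads to 3002, 2664 and 4091, a log2 difference of -0.39 (95% interval -1.22 to 0.44, limma's adjusted p = 0.593). Rspo3 went from 16119, 6329 and 8862 to 6341, 7341 and 9645, a log2 difference of -0.34 (95% interval -1.24 to 0.57, limma's adjusted p = 0.687). The other ligands differed by -0.36 for Rspo1 and -0.39 for Rspo4, and Lgr4 by 0.17. The widest change was that of Lgr6, which went from 1985, 969 and 1883 to 3944, 1724 and 3556, a log2 difference of 0.91 (95% interval 0.06 to 1.77, limma's adjusted p = 0.188). Days overlapped for every member in the mutant, including Lgr6, whereas 27.6% of genes did not overlap.

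**Figure D3:**
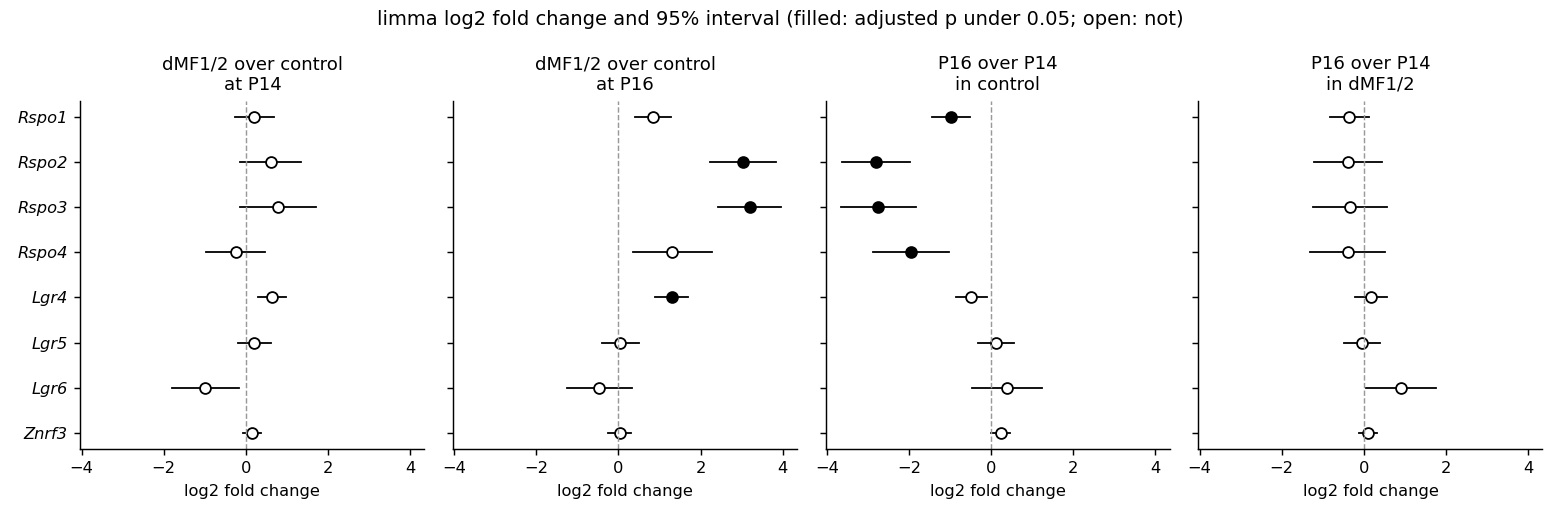
Limma log2 differences of the 8 tested members with 95% intervals for dMF1/2 over control at P14 and P16 and for P16 over P14 in each genotype. Filled points had an adjusted p under 0.05: Rspo2, Rspo3 and Lgr4 between genotypes at P16, and the 4 ligands between days in control mice.

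Whether the change between days differed by genotype was tested as an interaction, and limma called 0 of 13415 genes (0.0%), with 648 (4.83%) at an unadjusted p under 0.05, while edgeR called 0 and DESeq2 called 7. The change of Rspo2 was less negative in the mutants than in the controls by 2.41 on the log2 scale (95% interval 1.24 to 3.59, limma's unadjusted p = 0.000815, adjusted p = 1) and that of Rspo3 by 2.41 (95% interval 1.13 to 3.68, limma's unadjusted p = 0.00153, adjusted p = 1). DESeq2 gave an adjusted p of 0.0299 for Rspo2 and called no other member, and over 20 alternatives the adjusted p of Rspo2 ranged from 0.0299 to 1. Rspo4 and Lgr4 differed by 1.56 and 0.66 and Rspo1 by 0.62, all short of the threshold in every alternative.

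P16 dMF1/2 mice were also set against P14 control mice, which asks how far the older mutants resemble the younger controls. Lgr4 was higher in the mutants, with 3487, 3741 and 5446 reads against 2558, 2471 and 2115, a log2 difference of 0.80 (SE 0.17; adjusted p = 0.0159 by limma), and 4.11% of genes were called higher in this comparison (11.0% in either direction). Its adjusted p was 0.052 without P14 control replicate 3, the highest of 15 alternatives that reached down to 0.000409. Znrf3 differed by 0.25 (limma's adjusted p = 0.151) and passed at 0.0422 without P16 dMF1/2 replicate 2, the lowest of alternatives that reached up to 0.391. The ligands were not called, with log2 differences of 0.22 for Rspo2 (95% interval -0.62 to 1.05), 0.45 for Rspo3 (-0.46 to 1.35), -0.15 for Rspo1 (-0.62 to 0.32) and -0.64 for Rspo4 (-1.56 to 0.28). Such intervals do not show equal levels. This comparison, the genotype comparison at P16 and the change in control mice share libraries with each other.

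Taken as sums of reads per kilobase, the ligand pool exceeded the Lgr pool 10.6- to 17.8-fold in P14 control and 13.6- to 18.6-fold in P14 dMF1/2 libraries. In P16 control libraries the ratio was 2.78, 5.46 and 4.04, and in P16 dMF1/2 libraries 7.70, 10.1 and 8.92, so that the P16 groups did not overlap with each other or with P14. Ligands over ligases gave ratios of 176 to 344 and 186 to 317 at P14, 30.95 to 85.3 in P16 control and 132 to 191.5 in P16 dMF1/2 mice, where the mutants of P16 overlapped with both groups of P14. The mean log2 ratio of ligand to receptor exceeded that of the controls by 1.17 in the mutants at P16 and fell by 1.91 from P14 to P16 in control mice and by 0.79 in dMF1/2 mice, against an SD of 0.36 pooled within the 4 groups. The summed receptor level was 898 ± 143.5, 902.5 ± 176, 932 ± 230.4 and 1202 ± 268 (SD, n = 3) in P14 control, P14 dMF1/2, P16 control and P16 dMF1/2 mice. Without Rspo4 the ligand sum was 812, 1521 and 1357 in the P16 control libraries, against receptor sums of 686, 966 and 1143. These ratios were described without a test, and transcript ratios say nothing of protein at the cell surface.

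**Figure D4:**
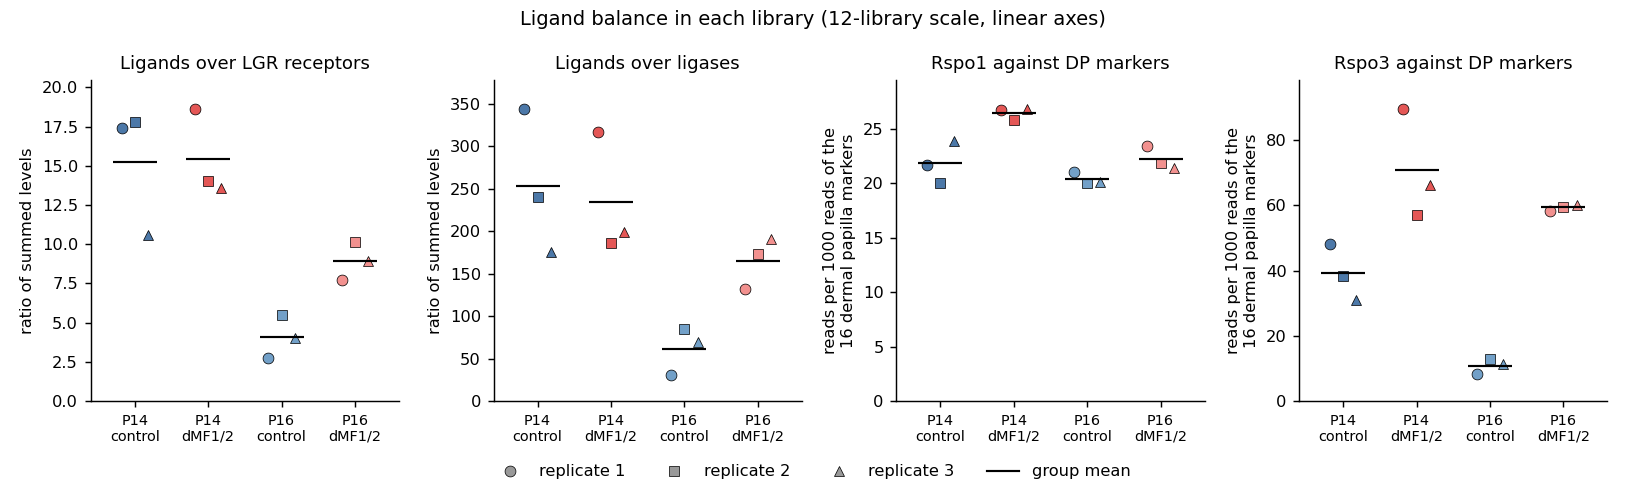
Ratio of the summed ligand level to the summed Lgr level and to the summed ligase level, and reads of Rspo1 and of Rspo3 per 1000 reads of the 16 DP markers, with 1 point per library and a line at the group mean (linear axes from 0). The P16 control libraries have the lowest ratios, 2.78 to 5.46 and 30.95 to 85.3, and the lowest Rspo3 per DP marker read, while Rspo1 per DP marker read lies between 20.03 and 26.85 throughout.

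The composition of both pools stood apart by genotype on each day, which is again given without a test. Rspo2 and Rspo3 together made up 16.9 to 19.4% of the ligand pool in P14 control, 26.9 to 32.2% in P14 dMF1/2, 9.31 to 10.1% in P16 control and 28.5 to 30.65% in P16 dMF1/2 libraries. No 2 groups overlapped in this share except the dMF1/2 groups of the 2 days. Rspo3 stood to Rspo2 in a ratio of 3.39 ± 0.35, 3.86 ± 0.72, 3.55 ± 0.43 and 3.99 ± 0.54 (SD, n = 3) in the same order of groups, while Rspo4 exceeded Rspo3 by 5.05 ± 0.33, 2.49 ± 0.39, 8.84 ± 1.45 and 2.38 ± 0.21. Lgr4 made up 39.3 to 56.2% of the Lgr pool in P14 control, 66.3 to 74.1% in P14 dMF1/2, 26.5 to 36.5% in P16 control and 49.3 to 68.1% in P16 dMF1/2 libraries. On each day every mutant library had a larger share of Lgr4 than any control library, while P14 control and P16 dMF1/2 libraries overlapped. Lgr5 never exceeded 6.37% of the Lgr pool.

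**Figure D5:**
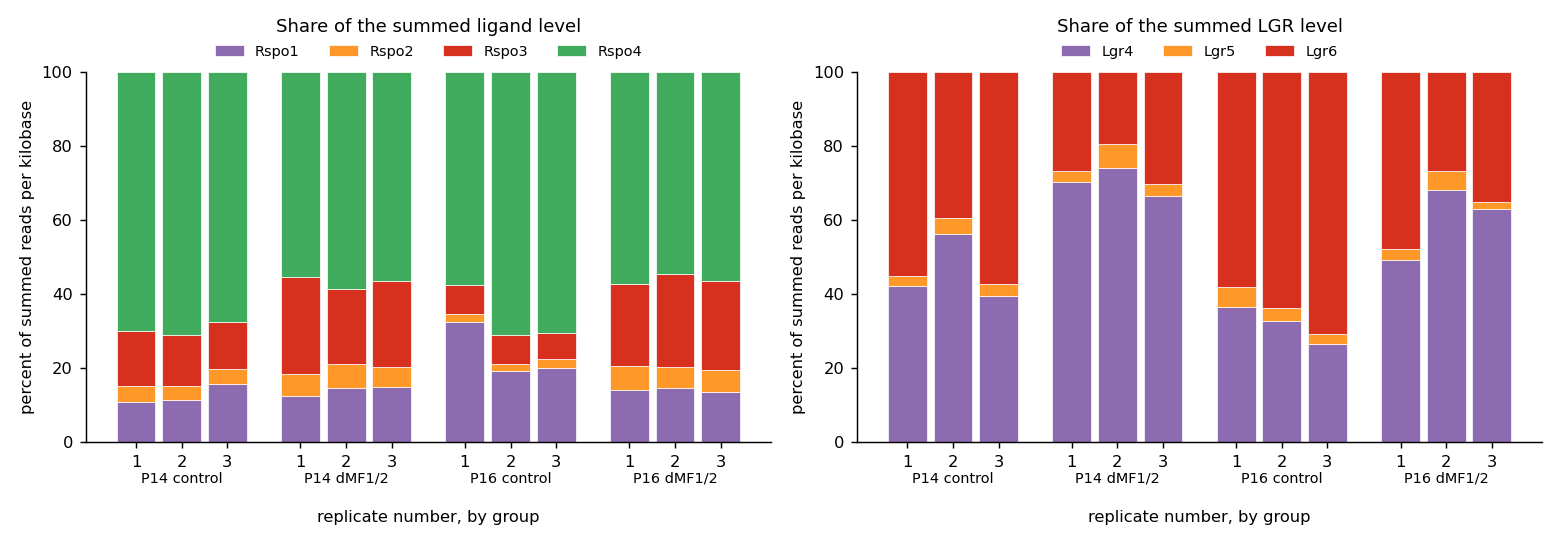
Percent of the summed reads per kilobase contributed by each R-spondin (left) and by each Lgr receptor (right) in the 12 libraries, ordered by group and replicate number. Rspo2 and Rspo3 shrink to 9.31 to 10.1% of the ligands in P16 control libraries and make up 26.9 to 32.2% in dMF1/2 libraries of both days, and Lgr4 is the largest share of the receptors in each dMF1/2 library.

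Markers of the DP moved with the ligands. The summed reads of the 16 markers were 122480 to 172470 in P14 control, 111080 to 180060 in P14 dMF1/2, 57103 to 97482 in P16 control and 108590 to 160200 in P16 dMF1/2 libraries. In control mice 7 of the 16 fell between the days and none rose, beside 8.28% of all genes called lower and 14.5% in either direction, with a median log2 fold change of -0.96 against 0.01 over all genes tested. Among them Corin, whose promoter drives the Cre, fell by 2.22, Alpl, an enzyme used to mark the DP, by 1.97 and Alx4, a homeodomain factor, by 1.53 on the log2 scale (limma's adjusted p = 0.0133, 0.00271 and 0.0114). At P16, 4 of the 16 were higher in dMF1/2 mice (Alpl, Alx4, Prom1 and Fgf10) and 1 was lower (Crabp1), beside 4.32% of all genes called in either direction, with a median of 0.97 against -0.00 over all genes tested. In such bulk samples, fewer DP cells in a sort and less RNA of these genes per cell cannot be told apart. Per 1000 reads of the 16 markers, Rspo1 was at 21.9 ± 1.94, 26.5 ± 0.591, 20.4 ± 0.532 and 22.25 ± 1.06 (SD, n = 3) in P14 control, P14 dMF1/2, P16 control and P16 dMF1/2 mice. On the same measure Rspo3 was 39.15 ± 8.52, 70.9 ± 16.8, 10.8 ± 2.40 and 59.4 ± 0.921, Rspo2 19.1 ± 3.84, 30.5 ± 4.65, 5.08 ± 1.25 and 24.9 ± 3.05, and Rspo4 150.3 ± 23.1, 132 ± 12.01, 74.5 ± 25.25 and 108 ± 8.31. Measured against the DP markers, the Rspo1 libraries of the 2 days overlapped in control mice, while those of Rspo2, Rspo3 and Rspo4 lay lower at P16 without overlap. On each day Rspo1 was higher on this measure in every dMF1/2 library than in any control library. The DP list includes Wif1, which had the highest median reads of the 16, and Lef1, both of which are also in the Wnt pathway lists, and the part of the DP markers in the ligand results was not tested beyond these ratios.

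Against the DP markers the receptors gave another picture. Lgr4 was at 16.3 ± 1.29, 26.5 ± 1.86, 21.6 ± 3.68 and 32.2 ± 1.81 reads per 1000 marker reads in the 4 groups, higher in every mutant library than in any control library of the same day. Lgr6 was at 21.9 ± 7.81, 11.3 ± 2.68, 51.2 ± 9.88 and 24.2 ± 11.3. Lgr6 and Lgr5 are epithelial genes elsewhere in the follicle, so keratinocyte markers were read beside them. Of 19 such markers, 13 were in both tables, with sums on the common scale of 580 to 1060 reads in P14 control, 487 to 903 in P14 dMF1/2, 381 to 890.1 in P16 control and 655 to 837 in P16 dMF1/2 libraries, and Epcam had 1 to 8 reads. Msx2, with the highest median of the 13 (178 reads), fell between the days in control mice (-0.87, limma's adjusted p = 0.0207). Lgr6, with 900 to 5541 reads per library, exceeded the keratinocyte sum 1.44- to 14.6-fold. Lgr5, with 254 to 521 reads, stayed below the keratinocyte sum in all 12 libraries. The part of keratinocyte RNA in the Lgr5 and Lgr6 values was not tested.

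Genes of other lists were also called in control mice between the days, beside the 14.5% of all genes. Of 10 dissociation stress genes, Hspa1b, Hspa1a and Atf3 rose (log2 differences of 1.77, 1.73 and 1.05), and the list summed to 224590 to 373440 reads at P14 and 360600 to 503550 at P16. Of 7 endothelial genes, Emcn and Vwf rose and Tek fell, with sums of 1023.8 to 1437 and 708 to 1592 reads, and of 8 melanocyte genes Kit and Mitf rose, with sums of 544 to 701 and 897 to 984 reads and Dct and Tyrp1 at 0 in some libraries. The adipocyte gene Plin1, which encodes a lipid droplet protein, moved with Rspo2 and Rspo3: it fell in control mice (-2.37, limma's adjusted p = 0.00558) and was higher in dMF1/2 mice at P16 (2.42, limma's adjusted p = 0.00604). Of 5 adipocyte genes 2 were in both tables, Plin1 with 47 to 688 and Fabp4 with 89 to 370 reads per library, and they summed to 361 to 820 reads in P14 control, 532 to 776 in P14 dMF1/2, 223 to 429.6 in P16 control and 356 to 561.5 in P16 dMF1/2 libraries. The median log2 fold change of these 2 genes was -0.86 between the days in control mice and 0.70 at P16. Fabp4 thus went in the direction opposite to Plin1 in both comparisons, and it was not called. At P16 Atf3 was lower in dMF1/2 mice (-0.65), and Plin1 and Atf3 were the only genes called by limma in that comparison in the lists of keratinocyte, sheath, fibroblast, melanocyte, endothelial, immune, Schwann, muscle, adipocyte, proliferation and stress genes. The stress sums did not overlap at P16, at 360600 to 503550 reads in control and 321660 to 343030 in dMF1/2 libraries. Neither did the melanocyte sums, at 897 to 984 and 789 to 887. The Schwann sums, at 3681 to 3760 and 4027 to 5103, were also separate, and those of the other lists overlapped. The part of these genes in the ligand results was not tested.

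Genes with the most similar course over the 12 libraries were sought for each tested member, as Pearson correlations of log2(reads + 1) that describe 12 libraries sharing 4 groups, depth and sorting. Rspo2 and Rspo3 were each other's closest match among 13414 genes, at 0.992, followed by Nrg2, a neuregulin, and Scube3, a secreted signaling modulator, which were the next closest to both. Rspo1 was closest to Grin3a, the BMP antagonist Nog and Cdh22 (0.983, 0.978 and 0.975), and Rspo4 to Slitrk5, the phosphatase gene Dusp10 and the Wnt inhibitor Sfrp1 (0.986 to 0.991). Lgr4 was closest to Grin2b, the endothelin receptor Ednra and Daam2 (0.957 to 0.971), and correlated with Rspo3 at 0.882, which was rank 157 among the matches of Lgr4. The remaining receptors and the ligase followed other genes, Lgr5 with Timp3, Rslcan18 and Metrnl (0.847 to 0.894), Lgr6 with Lix1l, Sema6d and Rap1gap2 (0.924 to 0.939) and Znrf3 with Cep350, Sbno1 and Dicer1 (0.899 to 0.918). Lgr5 and Lgr6 ran in opposite directions, at -0.646.

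Other Wnt pathway genes were counted from 4 lists holding 84 genes besides the members. At P16, 72 were tested, of which 9 were higher and 3 lower in dMF1/2 mice, beside 4.32% of all genes called in either direction, with a median log2 fold change of 0.11 against -0.00 over all genes tested. Among ligands, Wnt5b, Ndp and Wnt5a were higher (1.06, 1.02 and 0.82) and Wnt16 was lower (-1.64), and of 19 receptors and co-receptors Fzd10 alone was called, as higher (2.14). Among inhibitors, Sostdc1 and Sfrp2 were higher (2.34 and 1.89) and Dkk2, which binds Lrp co-receptors, was lower (-1.09), with limma's adjusted p-values of 0.00801 to 0.042. Tle2 and Apc2 were higher in the group of cytoplasmic and nuclear components (1.04 and 0.87) and beta-catenin itself, Ctnnb1, was lower (-0.66).

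From P14 to P16 in control mice, 73 of the 84 were tested, and 2 rose and 12 fell, beside 14.5% of all genes called in either direction and 8.28% called lower, with a median of -0.13 against 0.01 over all genes tested. The largest falls were those of the inhibitors Sfrp1 (-2.18) and Sfrp2 (-2.17), the ligand Wnt2 (-1.54), Sostdc1 (-1.50), Fzd10 (-1.47), the nuclear factor Lef1 (-1.16), Tle2 (-0.98) and Apc2 (-0.84), and Fzd5 (0.63) and Ctnnb1 (0.57) rose. In dMF1/2 mice 1 of the 73 rose and 2 fell between the days, beside 5.8% of all genes. Of 13 other genes listed as partners of R-spondins or Lgr proteins, among them cell surface proteoglycans (glypicans and syndecans), 12 were tested: Gpc1 was lower in dMF1/2 mice at P16 (-1.39, limma's adjusted p = 0.0286), and in control mice Gpc6 (-1.17) and Sdc3 (-0.31) fell and Bmpr1a (0.33) rose, beside the same 4.32% and 14.5% of all genes. Of 18 canonical Wnt target genes 14 were tested, and at P16 Bambi was higher (1.05) and Myc and Twist1 were lower (-0.86 and -0.67) in dMF1/2 mice, beside the 4.32% of all genes. Between the days in control mice Lef1 (-1.16) and Bambi (-0.83) of these 14 fell and none rose, beside the 14.5% of all genes.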

How the data were processed

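DP cells were sorted by FACS from the skin of 12 mice and their RNA was sequenced from stranded, rRNA-depleted libraries. According to the submitters' processing notes and the methods, the authors trimmed reads with Trimmomatic, mapped them with TopHat2 to mm10, counted them per gene of GRCm38.p4 with HTSeq and normalized them with DESeq2; the strand setting of the counting is not given in the sources used here. The deposited signal values are reads divided by the size factors of a day, and 100% of the values gave whole reads within 0.01 read. The fold changes, scores and p-values deposited by the authors were not used. Other ages were not analysed here.

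Genotypes were compared within each day on the deposited values and days on a median-of-ratios scale over 12 libraries, with limma 3.58.1 in R 4.3.3 on log2(value + 1), genes of mean at least 10, Benjamini-Hochberg adjustment over all genes and a threshold of 0.05. Fold changes on this scale understate the change of low genes. Intervals are at 95%, and floors cover counting error only. Alternatives used edgeR 4.0.16 and DESeq2 1.42.0 on the recovered reads, a replicate block, TMM scaling, pseudocounts of 0.1 and 10, no filter, other fits, and each library left out. Scripts were tested on simulated data.

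Replicates are separate mice. Deviations from group means of libraries with the same number correlated across genes at 0.586, 0.389 and 0.304 at P14 and at 0.256, 0.293 and 0.311 at P16, and across days at -0.173 to 0.216, so the numbers were taken to pair libraries within a day only. Members, gene lists and tests were chosen with earlier results of these data known. The text names all 9 members, called Wnt pathway genes (at most 8 in each direction by size of change), the 3 genes most like each member, and at most 4 examples of other lists. Exon lengths came from the GRCm38 annotation and promoters from RefSeq (GRCm38.p6).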

Additional observations from a re-analysis of the deposited data

How the results depend on the processing

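Of 752 member values under the alternatives, 721 kept their direction and side of the threshold, 5 lost the call, 10 gained it and 16 changed sign, 0 of these in a member called in either fit. The sign changes came with libraries left out, over which log2 differences ranged at P16 from -0.16 to 0.26 for Lgr5 and from -0.043 to 0.14 for Znrf3, and in the dMF1/2 day change from -0.64 to 0.032 for Rspo3, from -0.025 to 0.31 for Lgr4 and from -0.26 to 0.17 for Lgr5. They ranged from -0.38 to 0.048 for Lgr5 in the interaction, and from -0.050 to 0.38 for Lgr5 and from -0.37 to 0.30 for Lgr6 in P16 dMF1/2 against P14 control. Where genes were counted, the 7 genes called at P14 became 207 with DESeq2, 224 with the replicate block, 11 in a joint fit and 0 to 18 with single libraries left out. The 582 called at P16 became 1123 with DESeq2, 1403 with the replicate block and 149 to 683 with single libraries left out. The 1951 of the control day change became 805 in a fit of 6 libraries, 950 without both P14 replicates 1 and 693 to 1943 with single libraries left out. The 778 of the dMF1/2 day change became 1341 with DESeq2, 323 in a fit of 6 libraries, 819 without both P14 replicates 1 and 257 to 678 with single libraries left out. The interaction, at 0, gave 7 with DESeq2, 2 without both P14 replicates 1 and 0 to 2 with single libraries left out. The 1471 of P16 dMF1/2 against P14 control became 602 in a fit of 6 libraries, 949 without both P14 replicates 1 and 654 to 1096 with single libraries left out.

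Members called went from 0 to 1 with DESeq2 and 3 with the replicate block at P14, from 3 to 5 with the block at P16, from 4 to 2 without P14 control replicate 1 in the control day change (range 2 to 4), from 0 to 1 with DESeq2 in the interaction, and from 1 to between 0 and 2 with single libraries left out in P16 dMF1/2 against P14 control. In the day changes the block joined libraries of the same number over both days, although the numbers pair libraries within a day only. It changed no call of a member there. Without Rspo4 the difference of dMF1/2 minus control in the log2 ratio of ligand to receptor was 0.54 at P14 (0.041 with Rspo4) and 1.57 at P16 (1.17). For P16 dMF1/2 minus P14 control it was -0.22 (-0.74), and the difference in the log2 ratio of ligand to ligase was -0.055 (-0.58). With the geometric mean of the ligands in place of their sum, the differences of dMF1/2 minus control at P16 were 1.71 in the log2 ratio to receptor and 2.07 in that to ligase (1.52 with the sum). The alternative without both P14 replicates 1 was chosen after seeing the data. The fits of fewer libraries have fewer degrees of freedom, and the cause of the other changes was not tested. Depth limits Rnf43, at 0 to 10 reads.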
